A study of Rattus norvegicus with 6 samples.

Results

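miR-132 and miR-212 are neighbouring miRNA hairpins, and the 4 mature strands they give, rno-miR-132-3p, rno-miR-132-5p, rno-miR-212-3p and rno-miR-212-5p (rno for rat, left off from here on), were 4 of the 650 mature miRNAs counted in rat trigeminal ganglion. They were picked by name, as every listed miRNA with the stem miR-132 or miR-212, and all 4 had enough reads to be tested. Sensory neurons that serve the face have their cell bodies in this ganglion. The CCI-ION group had chronic constriction injury of the left infraorbital nerve, which supplies the whisker pad and upper lip, by loose silk ligatures, a model of trigeminal neuropathic pain. The sham group had the nerve exposed on one side but not ligated. Both groups were Sprague-Dawley rats of 8 to 10 weeks, with ganglia of the operated side taken on day 14, and each group had 3 libraries. The sources used here do not say whether each library came from a separate rat or from pooled ganglia, so p-values measure the spread between libraries, which may be technical. Only one nerve branch was ligated, so each ganglion also held neurons of other branches.

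In neurons both hairpins lie in one primary transcript, which the transcription factor CREB switches on after synaptic activity or neurotrophin signalling. That is why they are known as activity-regulated miRNAs. A mature miRNA finds its target messages mainly through its seed, bases 2 to 8 from the 5′ end. miR-132-3p is known for promoting dendrite growth. miR-212-3p shares its targets in large part through the same seed. The 5p strands come from the other side of each hairpin and have seeds of their own. In neurons and brain the 3p strands are the ones usually studied.

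The 4 mature sequences are printed because their seeds set which members can share targets. They are RefSeq sequences (build GRCr8), each identical to the sequence deposited with the counts, written 5′ to 3′ with the seed in capitals.
miR-132-3p: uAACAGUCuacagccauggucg
miR-212-3p: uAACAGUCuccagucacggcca
miR-132-5p: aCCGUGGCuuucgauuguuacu
miR-212-5p: aCCUUGGCucuagacugcuuacug

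Both 3p strands carried the seed AACAGUC, and no other of the 650 miRNAs had it. Over their 22 bases the 3p strands differed at 5 positions counted from the 5′ end of miR-132-3p, as A10C, C14U, U17C, U20C and G22A, with miR-132-3p first. The 5p seeds differed from each other by G4U, with miR-132-5p first, and neither was found in another listed miRNA. The closest other sequence in the table differed from miR-132-5p at 8 bases and from miR-212-5p at 7. The 5 differences between the 3p strands were the fewest for any member, so no member was nearly identical to another listed miRNA.

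The strands lie on the plus strand of chromosome 10 in RefSeq build GRCr8, miR-212-5p at chr10:60521771-60521794, miR-212-3p at chr10:60521811-60521832, miR-132-5p at chr10:60522055-60522076 and miR-132-3p at chr10:60522091-60522112. The end of miR-212-3p and the start of miR-132-5p are 222 bases apart, in a stretch between the protein-coding genes Hic1 and Ovca2. The miR-132 hairpin (chr10:60522033-60522133, RefSeq, GRCr8) is shown because the use of its strands is compared below, with the 5p strand as the first run of capitals and the 3p strand as the second.
miR-132 hairpin: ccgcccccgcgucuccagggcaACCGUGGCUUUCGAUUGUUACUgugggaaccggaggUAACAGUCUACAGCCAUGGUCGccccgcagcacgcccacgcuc

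Total miRNA counts were 6420434 to 11014970 in CCI-ION libraries and 10084327 to 12560545 in sham libraries. The sensory neuron markers miR-183-5p, miR-96-5p and miR-182 together held 34692 to 45625 CPM in CCI-ION and 35126 to 44685 CPM in sham libraries, so the expected ganglion markers were abundant in every library. CPM here means miRNA counts relative to the library's miRNA total, scaled by the trimmed mean of M-values method (TMM). The libraries numbered 1 stood apart from the other 4: of 463 tested miRNAs, 97 (21%) were higher in both of them than in any other library and 91 (19.7%) were lower. Libraries with the same number deviated alike, and values from a fit with the number as a block are given below where they change a call.

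Setting CCI-ION against sham asks whether levels of these strands in the ganglion differ on day 14 after the nerve injury. None of the 4 strands was called: the difference between the group means was smaller than the SD of at least one group for each, and the groups overlapped for each, where 13.8% of the tested miRNAs had no overlap. In edgeR's quasi-likelihood test 0 of 4 members passed an adjusted p of 0.05, where 0.648% of the 463 tested miRNAs did. An unadjusted p under 0.05 was found for 0 of the 4, beside 46 of the 463. With the replicate block 11.7% of the tested miRNAs were called, and again 0 of the 4. DESeq2 without the block also called 0 of the 4, beside 13 of the 463 tested miRNAs. However, miR-212-3p was among 81 tested miRNAs that DESeq2 gave no adjusted p, so it could not be called there. The median log2 fold change of the 4 strands was 0.01, as was that of all tested miRNAs.

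miR-132-3p, the strand linked to dendrite growth, had 31.9, 21.2 and 19.1 CPM in CCI-ION libraries 1 to 3 and 26.9, 22.5 and 20.2 CPM in sham libraries 1 to 3. The groups overlapped, and in each group library 1 was the highest. Its mean was 24.1 ± 6.86 CPM in CCI-ION and 23.2 ± 3.41 CPM in sham (SD, n = 3 each). The log2 fold change was 0.06 ± 0.23 (SE), with a 95% interval of -0.49 to 0.61 and an edgeR adjusted p of 0.98. The interval spans changes in both directions, so the data do not show that the level stayed the same.

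miR-212-3p, which has the same seed, was the rarest strand, with 18 to 57 reads per library. It had 4.91, 3.38 and 2.42 CPM in CCI-ION libraries 1 to 3 and 3.15, 4.07 and 4.02 CPM in sham libraries 1 to 3. The CCI-ION values lay on both sides of the sham values, with the highest and the lowest library of the series both in CCI-ION. The means were 3.57 ± 1.26 CPM in CCI-ION and 3.75 ± 0.51 CPM in sham (SD, n = 3 each). The log2 fold change was -0.05 ± 0.31 (SE, 95% interval -0.78 to 0.69, edgeR adjusted p = 0.993). Every library lay well above the 3-count floor, which is 0.225 to 0.483 CPM.

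miR-132-5p, the most abundant strand, had 66.3, 43.9 and 41.6 CPM in CCI-ION libraries 1 to 3 and 67.0, 50.9 and 53.7 CPM in sham libraries 1 to 3. CCI-ION was lower than sham in 3 of 3 same-numbered pairs, though by little in the pair numbered 1, and the groups overlapped because CCI-ION library 1 was high. Among all tested miRNAs 23.5% were lower in CCI-ION in 3 of 3 pairs. Its mean was 50.6 ± 13.7 CPM in CCI-ION and 57.2 ± 8.60 CPM in sham (SD, n = 3 each). The log2 fold change was -0.17 ± 0.23 (SE, 95% interval -0.70 to 0.35, edgeR adjusted p = 0.923). With the replicate block the interval narrowed to -0.46 to 0.07, and the strand was still not called (edgeR adjusted p = 0.405).

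miR-212-5p had 43.8, 25.9 and 21.8 CPM in CCI-ION libraries 1 to 3 and 40.2, 23.1 and 22.8 CPM in sham libraries 1 to 3. The values split by library number and not by group: the 2 libraries numbered 1 stood above the other 4, whose range was 21.8 to 25.9 CPM. Group means were 30.5 ± 11.7 CPM in CCI-ION and 28.7 ± 9.95 CPM in sham (SD, n = 3 each). The log2 fold change was 0.09 ± 0.33 (SE, 95% interval -0.69 to 0.87, edgeR adjusted p = 0.98). The block brought the SE to 0.15 and the interval to -0.23 to 0.38, the largest narrowing among the 4 strands.

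**Figure D1:**
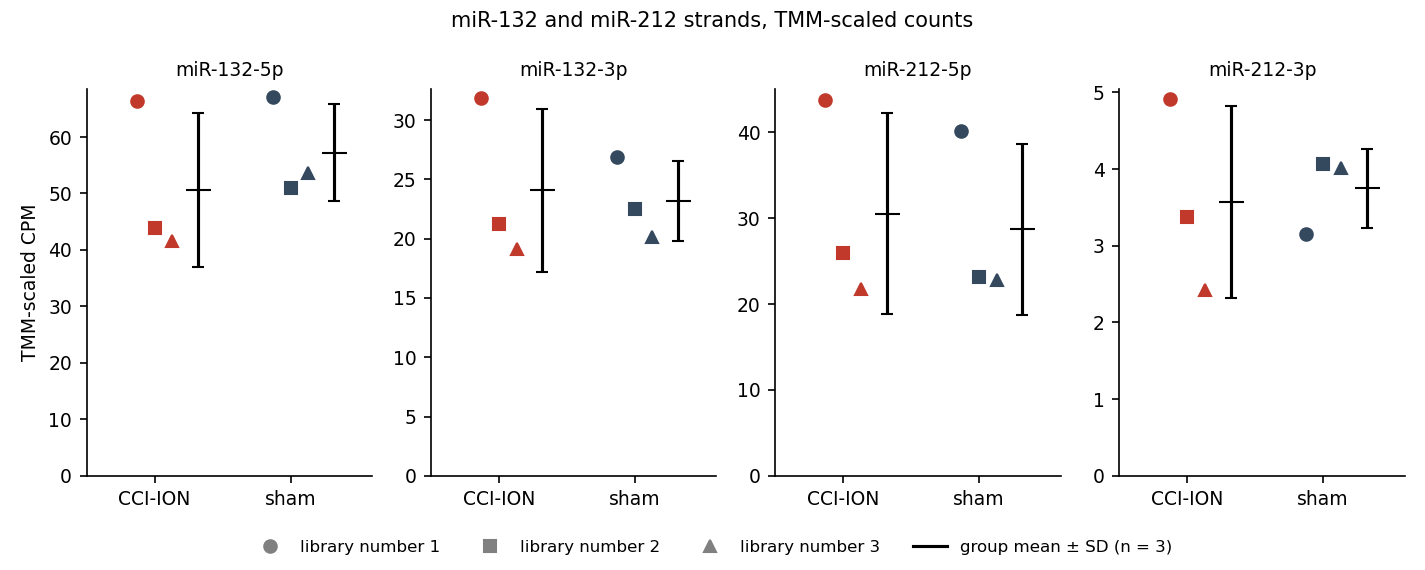
TMM-scaled CPM of each strand (vertical axis from 0) in the 3 CCI-ION and 3 sham libraries, with the library number as the marker shape and the group mean ± SD beside the points. In 3 of the 4 panels both libraries numbered 1 lie above the other 4, and in all 4 the groups overlap.

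The libraries numbered 1 were above the other 4 for miR-132-3p, miR-132-5p and miR-212-5p, with means 1.42, 1.40 and 1.79 times those of the other libraries. For miR-212-3p this was not so, since sham library 1 had the lowest sham value. The libraries numbered 1 also differed in cell type markers. Of 9 marker lists, 7 had their lowest sums in both libraries numbered 1, and 1, the erythroid list, its highest. The sensory neuron markers were among the 7, at 34692 CPM in CCI-ION library 1 and 35126 CPM in sham library 1. In the other 4 libraries they were at 41836 to 45625 CPM. They were thus lowest in the libraries numbered 1, where miR-132-3p, miR-132-5p and miR-212-5p, but not miR-212-3p, were highest. The neuron, myelinating glia, endothelial, fibroblast and mural, and epithelial lists were lowest there too. Erythroid markers, led by miR-486, summed to 780.5 CPM in CCI-ION library 1 and 751.5 CPM in sham library 1, against 275.5 to 450.9 CPM in the other 4, all 3 markers being detected. Skeletal muscle markers, led by miR-1b, were the last of the 7, at 3342 CPM in CCI-ION library 1 and 5198 CPM in sham library 1. In the other 4 libraries muscle markers ranged from 6384 to 10674 CPM. The part of these cells, or of the library totals, in the levels of miR-132 and miR-212 was not tested. In whole ganglia, fewer neurons and less miRNA per neuron cannot be told apart.

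Within numbers, the log2 ratio of CCI-ION over sham for miR-132-3p was 0.246 for number 1, -0.0832 for number 2 and -0.0791 for number 3. For miR-212-3p the ratios were 0.639, -0.269 and -0.730, with 18 to 57 reads per library. For miR-212-5p they were 0.124, 0.165 and -0.0645. Only miR-132-5p kept one sign, at -0.0154, -0.213 and -0.370. Leaving out CCI-ION library 1 made all 4 fitted log2 fold changes negative, at -0.21 for miR-132-3p, -0.42 for miR-132-5p, -0.37 for miR-212-3p and -0.27 for miR-212-5p, none of them called by edgeR (adjusted p 0.462 to 0.814). Leaving out sham library 3 also turned miR-132-3p (-0.03) and miR-212-5p (-0.05) negative, as leaving out sham library 2 did miR-212-5p (-0.05). That of miR-212-3p was 0.18 without CCI-ION library 3. Without the block, the signs for miR-132-3p, miR-212-3p and miR-212-5p therefore rested on single libraries. miR-132-5p stayed negative whichever library was left out (-0.42 to -0.04). Leaving out 1 library of a number leaves the other without its partner, so whole pairs were also left out of the blocked fit. There miR-212-5p stayed positive, at 0.048 without number 1, 0.045 without number 2 and 0.135 without number 3. miR-132-5p stayed negative there, while miR-132-3p and miR-212-3p changed sign.

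The order of the strands was stable within libraries. miR-132-5p was the most abundant, 211th of the 650 miRNAs by mean CPM, and exceeded miR-212-5p in 6 of 6 libraries, by 1.51 to 2.36 times. miR-212-5p, 251st, exceeded miR-132-3p, 267th, in 6 of 6 libraries, but by as little as 1.03 times, and their ranges over libraries overlapped, so these neighbours were not separated by their spread. miR-132-3p exceeded miR-212-3p, 389th, by 5.03 to 8.52 times in 6 of 6. These ratios compare reads, and strands of different sequence can enter a library with different efficiency. All 4 strands together held 0.0082% to 0.0155% of miRNA counts in CCI-ION and 0.00975% to 0.0146% in sham libraries.

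In both hairpins the 5p strand gave more reads than the 3p strand in every library, by 2.07 to 2.66 times for miR-132 and 5.67 to 12.7 times for miR-212. Among 114 hairpins with a mean of at least 20 reads for each strand, the 5p strand was ahead in 6 of 6 libraries for 63, and the 3p strand for 40. The strand with the shared seed was therefore the minor one of its hairpin in these ganglia, by reads.

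The strands of one hairpin are counted in the same library, so their ratio does not depend on how libraries are scaled. For miR-132 the 3p strand gave 32.5%, 32.6% and 31.5% of the hairpin's reads in CCI-ION libraries 1 to 3 and 28.6%, 30.7% and 27.3% in sham libraries 1 to 3. All 3 CCI-ION libraries lay above all 3 sham libraries, at 32.2% ± 0.61 in CCI-ION and 28.9% ± 1.68 in sham (SD, n = 3 each). The 95% Wilson intervals of single libraries, which cover counting error only, were 28.2% to 37.3% in CCI-ION library 2, on 405 reads, and 27.4% to 34.1% in sham library 2, on 721 reads, and these overlapped. The mean log2 ratio of 3p to 5p was -1.07 ± 0.04 in CCI-ION and -1.30 ± 0.12 in sham, a difference of 0.23 (two-sided exact permutation p = 0.1, the smallest that 3 against 3 allows; 0.4 after adjustment over the 4 ratios compared). Over the 114 hairpins, 6.14% had no overlap between groups in this ratio, 4.39% with CCI-ION higher. In size the shift was 36th of 114, above the median absolute difference of 0.17, so shifts as large were common.

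For miR-212 the 3p strand gave 10.1%, 11.5% and 10.0% of the reads in CCI-ION libraries 1 to 3 and 7.28%, 15.0% and 15.0% in sham libraries 1 to 3. Sham library 1 lay below every CCI-ION library and the other 2 sham libraries above, so the groups overlapped. The mean log2 ratio was -3.06 ± 0.13 in CCI-ION and -2.88 ± 0.67 in sham, a difference of -0.18 (SD, n = 3 each; exact two-sided permutation p = 0.8, also after adjustment). Without sham library 1 the difference was -0.57.

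**Figure D2:**
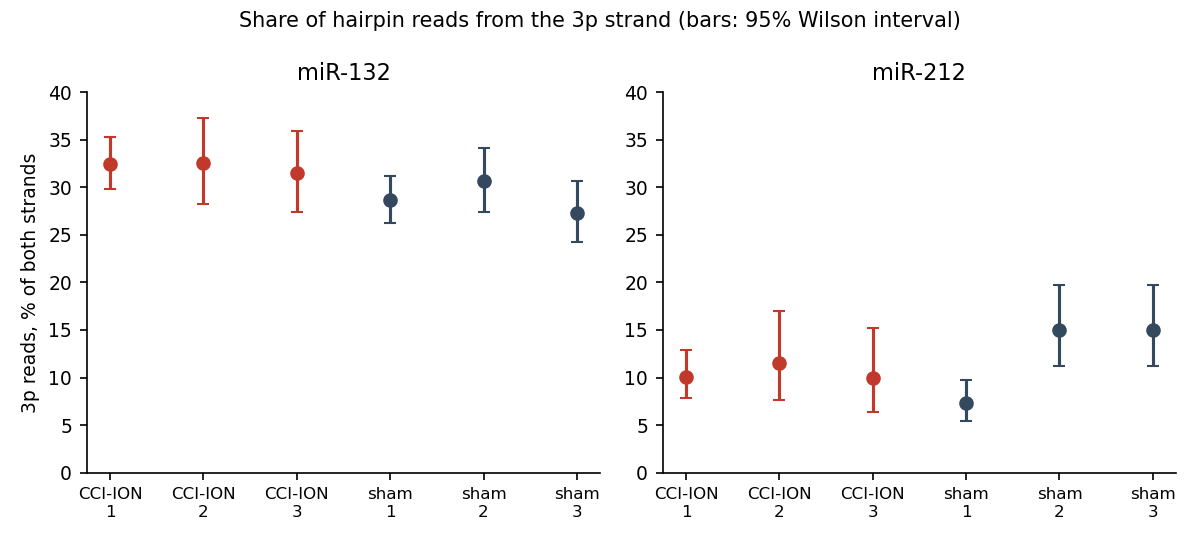
Share of each hairpin's reads that came from the 3p strand, in percent, for each library, with 95% Wilson intervals for counting error. The CCI-ION points for miR-132 (31.5% to 32.6%) lie above the sham points (27.3% to 30.7%), and those for miR-212 lie within the sham range.

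Strands on the same side of the neighbouring hairpins were compared in the same way, which tests whether the hairpins changed differently. The log2 ratio of miR-132-3p to miR-212-3p was 2.75 ± 0.17 in CCI-ION and 2.61 ± 0.41 in sham, a difference of 0.14 (SD, n = 3 each; exact two-sided permutation p = 0.6, adjusted 0.8). The log2 ratio of miR-132-5p to miR-212-5p was 0.76 ± 0.17 in CCI-ION and 1.04 ± 0.26 in sham, a difference of -0.27 (SD, n = 3 each; exact two-sided permutation p = 0.3, adjusted 0.6). It was lower in CCI-ION in 3 of 3 same-numbered pairs, and the groups overlapped. An exact sign-flip test over these pairs gave p = 0.25, the smallest that 3 pairs allow.

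The deposited RPM values, reads scaled to a library total, use a larger total than the miRNA counts, and on that scale miR-132-5p separated the groups. What this total counts is not stated, and the labels give total RNA and a TruSeq kit for RNA without saying how small RNA was selected, so what a difference on this scale means cannot be settled here. It had 31.7, 19.5 and 22.4 RPM in CCI-ION libraries 1 to 3 and 37.1, 32.8 and 35.3 RPM in sham libraries 1 to 3. Every CCI-ION library lay below every sham library, at 24.5 ± 6.38 RPM in CCI-ION and 35.1 ± 2.16 RPM in sham (SD, n = 3 each; exact two-sided permutation p = 0.1, which 3 against 3 libraries cannot go below). On this scale 29.4% of the 463 tested miRNAs were lower in CCI-ION without overlap, so the separation was common. miRNA counts made up 45.4% to 55.8% of the total behind the RPM in CCI-ION and 52.3% to 66.6% in sham libraries.

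The other strands overlapped between groups in RPM. miR-132-3p averaged 11.7 ± 3.14 RPM in CCI-ION and 14.2 ± 0.85 RPM in sham, with CCI-ION library 1 the highest of all 6 (SD, n = 3 each; exact two-sided permutation p = 0.4). miR-212-5p averaged 14.7 ± 5.38 RPM in CCI-ION and 17.4 ± 4.23 RPM in sham (two-sided exact permutation p = 0.5). It was lower in CCI-ION in 3 of 3 same-numbered pairs, as were 61.3% of tested miRNAs. miR-212-3p averaged 1.72 ± 0.56 RPM in CCI-ION and 2.34 ± 0.51 RPM in sham (two-sided exact permutation p = 0.2).

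**Figure D3:**
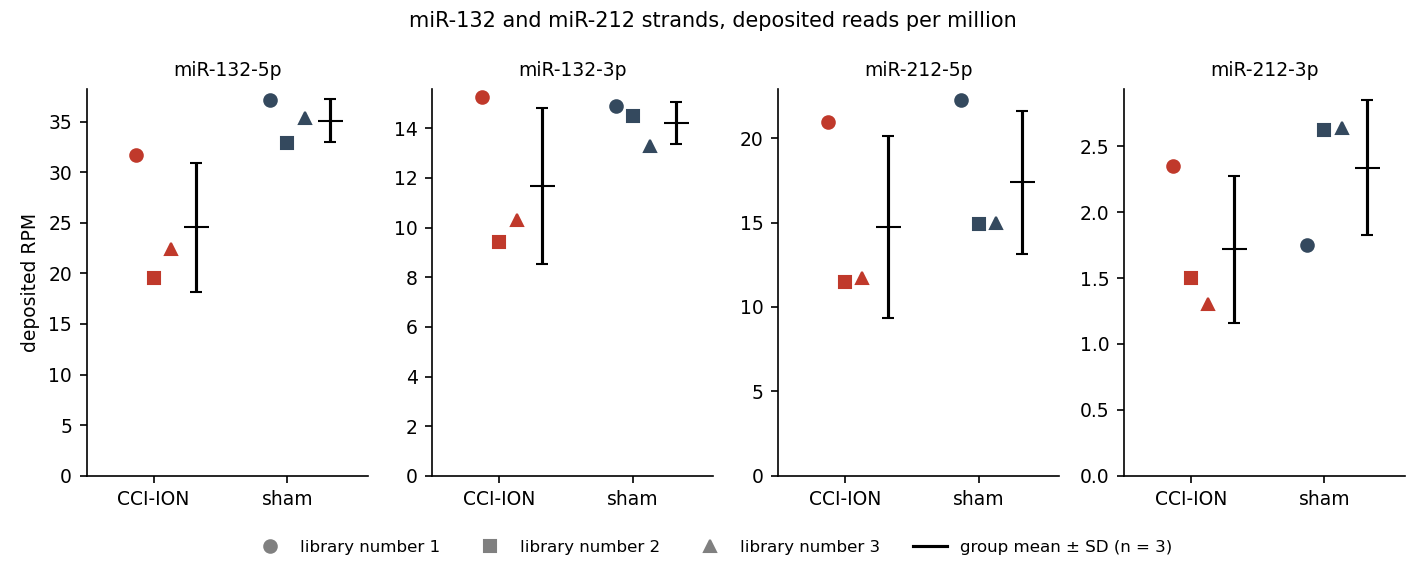
Deposited RPM of each strand (vertical axis from 0) in the 3 CCI-ION and 3 sham libraries, with library numbers as marker shapes and the group mean ± SD beside the points. The CCI-ION points of miR-132-5p (19.5 to 31.7 RPM) lie below its sham points (32.8 to 37.1 RPM), and the other strands overlap.

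When edgeR was given the totals behind the RPM as library sizes, the median log2 fold change of all tested miRNAs moved to -0.34, and all 4 strands had negative values. That of miR-132-5p was -0.51 ± 0.23 (SE, edgeR adjusted p = 0.256) without the block, and 0 of 4 strands were called, beside 1.3% of all tested miRNAs. With the block, on this scale, it was -0.54 ± 0.16 and passed (edgeR adjusted p = 0.0122), as did 34.1% of the tested miRNAs; 32.8% of the tested miRNAs were called lower. Relative to the median of all miRNAs with the block, -0.35, the strand's value is close to its -0.20 on the TMM scale, which was not called. The other 3 strands were called by neither fit on this scale.

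**Figure D4:**
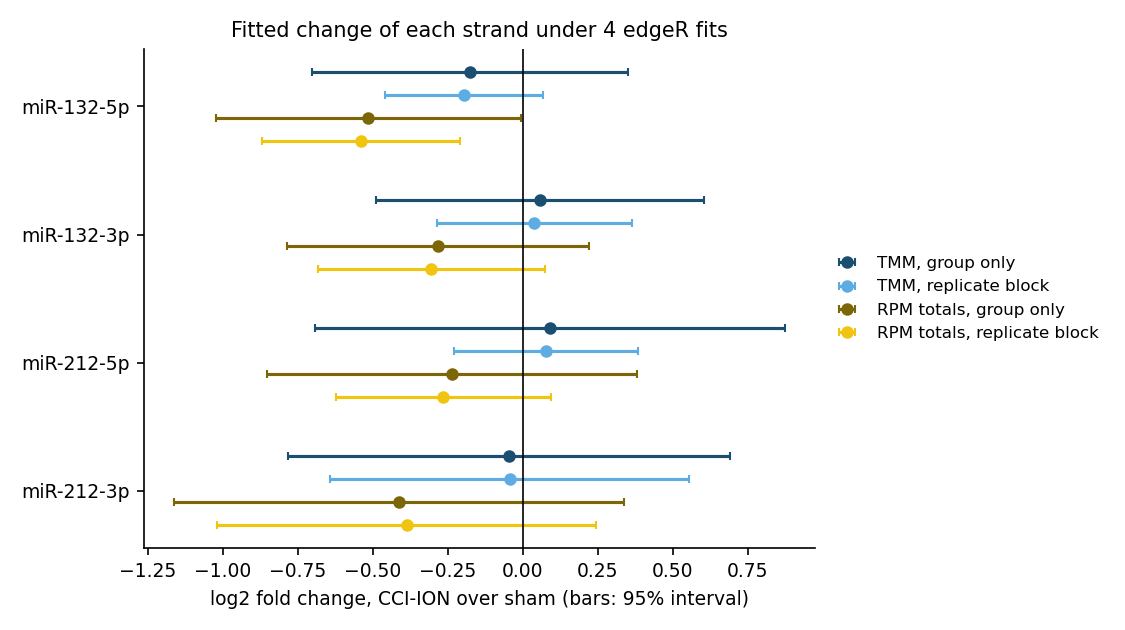
Fitted log2 fold change of CCI-ION over sham for each strand (points) with 95% intervals (bars), under TMM scaling or the totals behind the RPM, each without and with the replicate block. The interval of miR-132-5p lies below 0 on the RPM totals, and every interval under TMM scaling includes 0.

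Other miRNAs linked to synaptic plasticity or neuronal activity were read in the same fits, 18 of 20 listed having enough reads. Without the block edgeR called 0 of the 18, with 3 of all 463 miRNAs called and 46 at an unadjusted p under 0.05. DESeq2 without the block called 1 of the list lower, beside 7 of all 463 miRNAs. The list's median log2 fold change was -0.07 with 13 of 18 negative, where that of all tested miRNAs was 0.01. With the replicate block edgeR called 3 lower and 1 higher, beside 5.62% of all tested miRNAs lower and 6.05% higher.

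The 3 that were lower with the block are all abundant in neurons. miR-124-3p, the classical neuronal miRNA, averaged 180.0 ± 18.9 CPM in CCI-ION and 251.0 ± 9.28 CPM in sham (log2 fold change with the block -0.48 ± 0.11, edgeR adjusted p = 0.000927; without it 0.316). miR-128-3p, which limits neuronal excitability, averaged 3332 ± 597 CPM in CCI-ION and 4340 ± 423 CPM in sham (with the block -0.39 ± 0.10, edgeR adjusted p = 0.00244; without it 0.496). miR-138-5p, which restrains dendritic spine growth through Lypla1, averaged 808.2 ± 104.0 CPM in CCI-ION and 998.5 ± 108.4 CPM in sham (with the block -0.31 ± 0.10, edgeR adjusted p = 0.039; without it 0.601). The one that was higher, miR-184, averaged 34.7 ± 11.6 CPM in CCI-ION and 18.8 ± 8.04 CPM in sham (with the block 0.90 ± 0.16, edgeR adjusted p = 2.85e-05; without it 0.482). In the blocked fit the list had 2 lower and 1 higher once the pair numbered 1 was left out, beside 19 and 26 of all 453 tested. Leaving out the pair numbered 2 gave 0 lower and 1 higher, beside 15 and 16 of 464. Leaving out the pair numbered 3 gave 0 calls in the list, beside 4 lower and 1 higher of 466.

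The 2 most abundant of the list, miR-26a-5p (94740 ± 13586.5 CPM in CCI-ION and 92147 ± 16291 CPM in sham) and miR-125b-5p (19083 ± 2924 CPM in CCI-ION and 19272 ± 1931 CPM in sham), were not called in either fit. Besides miR-184, the largest fitted difference was that of miR-188-5p, at 1.17 ± 0.11 CPM in CCI-ION and 1.89 ± 0.43 CPM in sham (log2 fold change -0.68 ± 0.30, edgeR adjusted p = 0.496), which was not called. That 3 neuronal miRNAs were called with the block and 0 of the miR-132 and miR-212 strands were does not show that their changes differed, which was not tested. With the block, the 95% interval of miR-132-3p was -0.29 to 0.36 and that of miR-212-3p was -0.64 to 0.56.

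Cell type markers are given for the same libraries. Without the block 0 markers of any list were called, and the calls with the block below stand beside 6.05% of all tested miRNAs called higher and 5.62% lower. Leukocyte markers, led by miR-150-5p, summed to 284.2 to 331.0 CPM in CCI-ION and 222.3 to 266.2 CPM in sham, without overlap, and 2 of 5, miR-142-3p and miR-155-5p, were higher with the block. Neuron markers, led by miR-9a-5p, summed to 16014 to 20801 CPM in CCI-ION and 19716 to 22747 CPM in sham, and 4 of 5 were lower with the block. These were miR-218a-5p and miR-124-3p, miR-128-3p and miR-138-5p, the last 3 being the same calls as in the plasticity list above. The leading miR-9a-5p, also on both lists, was not called (edgeR adjusted p with the block 0.525). Muscle markers summed to 3342 to 8419 CPM in CCI-ION and 5198 to 10674 CPM in sham, with 2 of 5 lower with the block. Of epithelial markers 1 of 5, miR-205, was higher with the block, and it led that list. No marker of the sensory neuron, myelinating glia (led by miR-338-3p), endothelial (miR-126a-3p), fibroblast and mural (miR-143-3p) or erythroid lists was called in either fit. The glial miR-219a-5p was near 0, at 0.118 ± 0.137 CPM in CCI-ION and 0.268 ± 0.253 CPM in sham, and was not tested.

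For each strand the 3 miRNAs with the most similar values over the 6 libraries were found by the root mean square difference of log2 CPM, each miRNA centred on its own mean, among 326 miRNAs of at least 10 CPM. miR-132-3p was closest to miR-3596a (0.0655), miR-3596c (0.0712) and miR-181d-5p (0.0949), where the median over the 326 was 0.332. miR-132-5p was closest to miR-412-5p (0.0634), miR-181c-5p (0.0709) and miR-92b-3p (0.107). miR-212-5p was closest to miR-450b-3p (0.108), miR-136-5p (0.122) and miR-326-3p (0.154). Each of these neighbours was higher in both libraries numbered 1 than in any other library, as were 21% of the 463 tested miRNAs. For miR-3596a the values were 4797 CPM in CCI-ION library 1 and 4252 CPM in sham library 1, against 2868 to 3365 CPM elsewhere. The likeness thus includes a library difference that many miRNAs shared.

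The rare miR-212-3p had no neighbour as close, its nearest being miR-3570 (0.194), miR-322-3p (0.202) and miR-143-5p (0.212). Its own mean of 3.66 CPM lay under the 10 CPM asked of the compared miRNAs, so each of those was more abundant. Between the members themselves the difference was 0.134 for both miR-132 strands and 0.398 for both miR-212 strands, and the strands of different hairpins lay between 0.181 and 0.263. The strands of miR-212 thus had the least similar values over libraries among the 6 pairs of members. With 18 to 57 reads of miR-212-3p per library, counting error enters this difference, and its part was not tested.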

How the data were processed

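Small RNA was counted in 6 libraries. The members and lists were chosen with earlier results of these data known. The authors deposited raw counts per mature miRNA and, per library, RPM values. The submitters' processing notes name cutadapt 1.14, Bowtie 1.1.1 and the build rn6, and no read counter is stated. The deposited RPM equal the counts times 1 constant per library, and 100% of values gave whole reads within 0.01 read. A count test on those reads, which equal the deposited counts, called 3 miRNAs.

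Counts were tested with edgeR 4.0.16 (TMM, filterByExpr, robust quasi-likelihood F test, Benjamini-Hochberg) in R 4.3.3, with DESeq2 1.42.0 as an alternative. The filter kept 463 miRNAs and left out 187. Ratios used a pseudocount of 0.5 and exact permutation tests (scipy 1.17.1). Wilson intervals and count floors cover counting error only, while the intervals of fold changes come from the edgeR fits and include the spread between libraries. The edgeR SE was the absolute log2 fold change over the square root of the F statistic. These fits share information on spread between miRNAs, so intervals and p-values with the block rest on more than a miRNA's own pairs. Same-numbered libraries deviated from their group means together (correlations 0.664, 0.591 and 0.457), so the numbers were taken to pair them. What the number stands for is not given. Libraries of one group differed by far more than sampling noise (chi-square per degree of freedom from 164.6 to 732). The procedure was tested on simulated counts without an effect of library number, so that test does not show how the block handles one. The lists name 20 plasticity miRNAs and markers of 9 cell types. Named miRNAs were the 4 members, the 3 most alike per member, called, most abundant and most changed list members, and each marker list's most abundant.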

Additional observations from a re-analysis of the deposited data

How the results depend on the processing

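Of the members, only miR-132-5p was called under any alternative. With the totals behind the RPM and the replicate block, a combination added after seeing the data, it was -0.54. That fit called 34.1% of the 463 tested miRNAs, and 32.8% were called lower. Under those totals the value of miR-132-3p was -0.28 (with the block -0.31) and that of miR-212-5p -0.24 (with the block -0.26), each opposite in sign to TMM. Upper quartile factors gave miR-212-3p 0.084. Leaving out libraries moved miR-132-3p between -0.21 and 0.21, miR-132-5p between -0.42 and -0.04, miR-212-3p between -0.49 and 0.23, and miR-212-5p between -0.27 and 0.42. For miR-132-3p the block without both libraries numbered 1 gave -0.083. For miR-212-3p the block gave 0.057 without those numbered 2 and 0.23 without those numbered 3, and without the block it lay between -0.37 (without CCI-ION library 1) and 0.18 (without CCI-ION library 3). Under TMM the replicate block changed no call of a member. The cause of these shifts was not tested.

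The number of miRNAs called higher was 1 and became 28 with the replicate block, 6 with DESeq2, 26 with DESeq2 and the block, 0 under upper quartile factors and 6 under the totals behind the RPM with the block. The number lower was 2 and became 26 with the block, 7 with DESeq2, 18 with DESeq2 and the block, 5 under the totals behind the RPM, 152 with those and the block, and 5 without a filter. Leaving out libraries gave 0 to 26 higher and 1 to 19 lower; with the block these were 26 and 19 without number 1, 16 and 15 without number 2, and 1 and 4 without number 3.

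Plasticity list members called higher numbered 1, instead of 0, with the block under edgeR, DESeq2 or the totals behind the RPM. Over all 463 tested miRNAs these fits called 28, 26 and 6 higher. Of the 18 tested, 3 were called lower with the block under edgeR or DESeq2, beside 26 and 18 of all 463 tested miRNAs. With DESeq2 alone 1 was lower, beside 7 of the 463. Under the totals behind the RPM with the block 10 were lower, beside 152 of the 463. Leaving out libraries gave 0 to 1 higher and 0 to 2 lower.

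The strand ratio of miR-132 differed by 0.17 to 0.29 with libraries left out, that of miR-212 by -0.57 to 0.0098 (without sham library 2 or 3), the 3p ratio of both hairpins by -0.012 (without sham library 3) to 0.37 and the 5p ratio by -0.42 to -0.17. The exact sign-flip test over same-numbered pairs, the paired form of these tests, cannot go below 0.25. The strand ratio of miR-132 and the 5p ratio of both hairpins each gave that value. RPM differences with libraries left out were -4.37 to -1.46 for miR-132-3p, -14.2 to -8.04 for miR-132-5p, -0.937 to -0.414 for miR-212-3p and -5.77 to -0.222 for miR-212-5p. A pseudocount of 1 and log2(RPM + 1) changed no direction. By reads miR-212-3p was the thinnest strand, with 18 to 57 per library, while without the block the SE was largest for miR-212-5p (0.33, against 0.31).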
